A study of Mus musculus with 4 samples.

Results

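p53, encoded by Trp53, and 9 genes that it is known to switch on were followed gene by gene in mouse bone marrow LSK cells, the lineage-negative, Sca1-positive and cKit-positive fraction that holds the blood stem cells and their early progeny. The members were Trp53, Mdm2, Cdkn1a, Ccng1, Phlda3, Trp53inp1, Sesn2, Zmat3, Eda2r and Aen. They were picked by gene symbol, and all 10 were found among the 27998 genes counted. RNA of single cells was counted by unique molecular identifiers (UMIs, each standing for 1 captured molecule) in 4 droplet libraries. Controls (2 libraries) were Nup358 fl/fl animals, labelled wild-type, and Nup358 KO (2 libraries) were Nup358 fl/fl CreERT2 animals. Nup358, also named Ranbp2, is a large protein on the cytoplasmic face of the nuclear pore. Each library pooled the marrow of 3 mice aged 9 to 12 weeks, so that a genotype rests on 6 mice and 2 libraries. Per the study the CreERT2 recombinase is expressed from the Rosa26 locus in all tissues, and mice were given tamoxifen on 3 consecutive days. The study describes marrow 5 days after tamoxifen, and its text gives no separate day for the sequenced cells. The controls carry no CreERT2, so that loss of Nup358 and the presence of an active recombinase cannot be told apart in any comparison below. The reads come from the 3′ ends of transcripts, outside the deleted exon, so that Ranbp2 counts do not read the deletion itself. They were not used to check the labels.

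p53 is a transcription factor that is held at a low level by the ubiquitin ligase Mdm2 and builds up when DNA is damaged or when ribosomes or mitosis are disturbed. It then binds DNA sites made of paired 10-base motifs near its targets and raises their transcription. The protein is controlled mainly by its stability, so the level of Trp53 RNA is not a measure of its activity. In blood stem cells p53 is known for holding cells in quiescence and for removing damaged cells.

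In these data Phlda3 was higher in the Nup358 KO libraries than in the controls over all LSK cells. Within each progenitor type that could be compared it also lay above the controls in both KO libraries, in some on 1 to 3 UMIs in control replicate 2. Zmat3 was also higher over all cells. The call of Phlda3 was lost under 1 alternative setting and that of Zmat3 under 6. Cdkn1a, the best known arrest gene of the set, did not pass the test, and neither did Trp53 nor Mdm2.

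Where the promoter was in the reference, the p53 motif was looked up to show the sequence beside the values. The windows run from 250 to 31 bases before a gene's start in RefSeq on GRCm38.p6, and 8 of the 10 members had one. The motif was searched by the consensus of the p53 half-site, which reads the same on both strands. Of all 32851 windows, 6.33% held at least 1 match, as did 5 of the 10 windows of members, which belong to 5 of the 8 members. Cdkn1a held 2 in the window of its upstream start, 73 and 51 bases before it. Trp53, Mdm2, Ccng1 and Aen held 1 each, and the windows of Phlda3, Sesn2 and Eda2r held none. The windows below are shown because they belong to the negative regulator of p53, to its best known target, and to 2 members that lay higher in both KO libraries, 1 with and 1 without a match. They are written 5′ to 3′ on the strand of the gene, with matches in capitals, for Mdm2 at chr10:117710789-117711008 (minus strand), Cdkn1a at chr17:29090729-29090948 (plus strand), Ccng1 at chr11:40755317-40755536 (minus strand) and Phlda3 at chr1:135765835-135766054 (plus strand).
Mdm2: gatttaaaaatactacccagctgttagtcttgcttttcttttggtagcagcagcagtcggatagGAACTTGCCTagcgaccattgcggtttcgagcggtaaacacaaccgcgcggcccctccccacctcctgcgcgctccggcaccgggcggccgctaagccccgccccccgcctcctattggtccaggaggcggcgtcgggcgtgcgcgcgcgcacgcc
Cdkn1a: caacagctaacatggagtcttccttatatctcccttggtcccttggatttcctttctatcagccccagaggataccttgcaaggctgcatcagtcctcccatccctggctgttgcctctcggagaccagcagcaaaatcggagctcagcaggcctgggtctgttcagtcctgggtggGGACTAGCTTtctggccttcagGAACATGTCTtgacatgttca
Ccng1: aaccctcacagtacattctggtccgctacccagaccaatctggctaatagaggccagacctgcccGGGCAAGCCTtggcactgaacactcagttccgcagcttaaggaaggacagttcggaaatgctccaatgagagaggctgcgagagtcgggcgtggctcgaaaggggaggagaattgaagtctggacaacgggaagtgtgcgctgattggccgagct
Phlda3: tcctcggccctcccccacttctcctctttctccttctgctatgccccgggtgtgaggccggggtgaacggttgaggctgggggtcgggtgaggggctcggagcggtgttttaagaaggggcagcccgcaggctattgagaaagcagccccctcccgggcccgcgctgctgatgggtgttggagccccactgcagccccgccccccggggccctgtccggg
A match is a run of letters and not a bound site, and a window without one says only that these letters are not in it.

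The 4 libraries were not alike. Of the 25242 deposited barcodes, 24973 had at least 200 genes and at most 10% mitochondrial UMIs. Of these, 10932 had 3 or more times as many UMIs under the same barcode sequence in another library, and they are called copied barcodes here. Copied barcodes were 81.8% of the deposited barcodes in control replicate 2 and 65.3% in KO replicate 1, against 14.8% in control replicate 1 and 18.8% in KO replicate 2. Those of control replicate 2 had their larger count in KO replicate 2 in 2598 cases, in KO replicate 1 in 1230 and in control replicate 1 in 1765, so that most crossed genotypes. They were left out of the values below, and the values with them kept stand beside the main results. This left 7830 and 1200 control cells and 1589 and 3422 KO cells, with 18846887 to 59033602 UMIs per library. Kit or Ly6a, which encode the sort markers cKit and Sca1, had a UMI in 69.9% to 93.6% of the cells kept. Markers of mature erythroid cells (5 genes) summed to 1351 CPM (counts per 1000000 UMIs) in control replicate 2. In the other libraries they summed to 127 to 224 CPM. Of these genes, Hbb-bs measured 56.3 and 705 CPM in the controls and 2.63 and 4.36 CPM in the KO. Hba-a1, Hba-a2 and Alas2 were also lower in both KO libraries than in both controls. Hbb-bt measured 52.1 and 309 CPM in the controls and 164 and 219 CPM in the KO, most of the KO sums. Markers of T or NK cells (6 genes) and of macrophages (5 genes) summed to 2.02 to 15.5 CPM in all 4 libraries. The part of all these cells in the results was not tested.

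Cells were placed in progenitor types by marker lists that hold no member. A cell entered a gate when a list took at least a set share of its UMIs and at least 2 of its markers were seen. The stem-like gate (markers such as Procr, Hlf and Mecom) held 834 cells, the neutrophil-primed-like gate (Elane, Prtn3) 1959, the megakaryocyte-primed-like gate (Pf4, Itga2b) 565, the erythroid-primed-like gate (Klf1, Car1) 262, the lymphoid-primed-like gate (Dntt, Flt3) 630 and the monocyte/dendritic-primed-like gate (Irf8, Csf1r) 584. The B-lineage-like gate (Cd79a, Ebf1) held 453 cells, the plasmacytoid dendritic-like gate (Siglech) 90 and the basophil/mast-like gate 56, while 8608 cells passed no gate. These gates are ranges of a score and not types with a sharp edge. Within 20% of their thresholds lay 694 cells for the stem-like gate and 660 for the monocyte/dendritic-primed-like gate, and 975 cells passed 2 or more gates and were given to the stronger. The median cell kept had 6251 and 13175.5 UMIs in the controls and 17707 and 14398.5 in the KO. In the stem-like gate the medians were 2852 and 8309 UMIs in the controls and 10181 and 7626.5 in the KO. In the megakaryocyte-primed-like gate they were 4900 and 11524 against 17657 and 14743. A stem-like cell needed 10 list UMIs per 10000, so a cell with few UMIs could enter on few marker UMIs. The part of depth in gate membership was not tested.

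The makeup of the libraries moved with genotype. Neutrophil-primed-like cells were 22.2% and 11.2% of control cells and 2.71% and 1.23% of KO cells. B-lineage-like cells were 0.14% and 0.75% of control cells and 7.36% and 9.23% of KO cells, and the plasmacytoid dendritic-like gate held 3 and 0 control cells and 28 and 59 KO cells. The B-lineage-like cells of the KO were shallow, with medians of 2353 and 3736 UMIs where all cells kept in those libraries had medians of 17707 and 14398.5. Cells that passed no gate, called ungated here, were 54.6% and 60.1% of control cells and 73.3% and 71.4% of KO cells. They are not a progenitor type and make up most of every library, so that their values overlap with those over all cells. In a summed value fewer cells of a type and less RNA per cell cannot be told apart, and the values within gates are therefore given after those over all cells.

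Over all LSK cells, 2 of the 10 members passed the edgeR quasi-likelihood test at an adjusted p of 0.05, both higher in the KO, where 3.29% of the 13779 genes tested passed (180 genes, 1.31%, higher and 273, 1.98%, lower). For 8 members both KO libraries lay above both control libraries in CPM, as they did for 29.9% of all genes. For 0 members did both lie below, as they did for 24.5% of all genes. The median log2 difference of the members was 0.33, beside -0.008 over all genes. Below, a log2 difference between genotypes is KO over control, with its standard error (SE) over 2 libraries per genotype and its edgeR adjusted p. Differences between a gate and other cells, and differences of effects, are named as such and were fitted with library as a block.

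**Figure D1:**
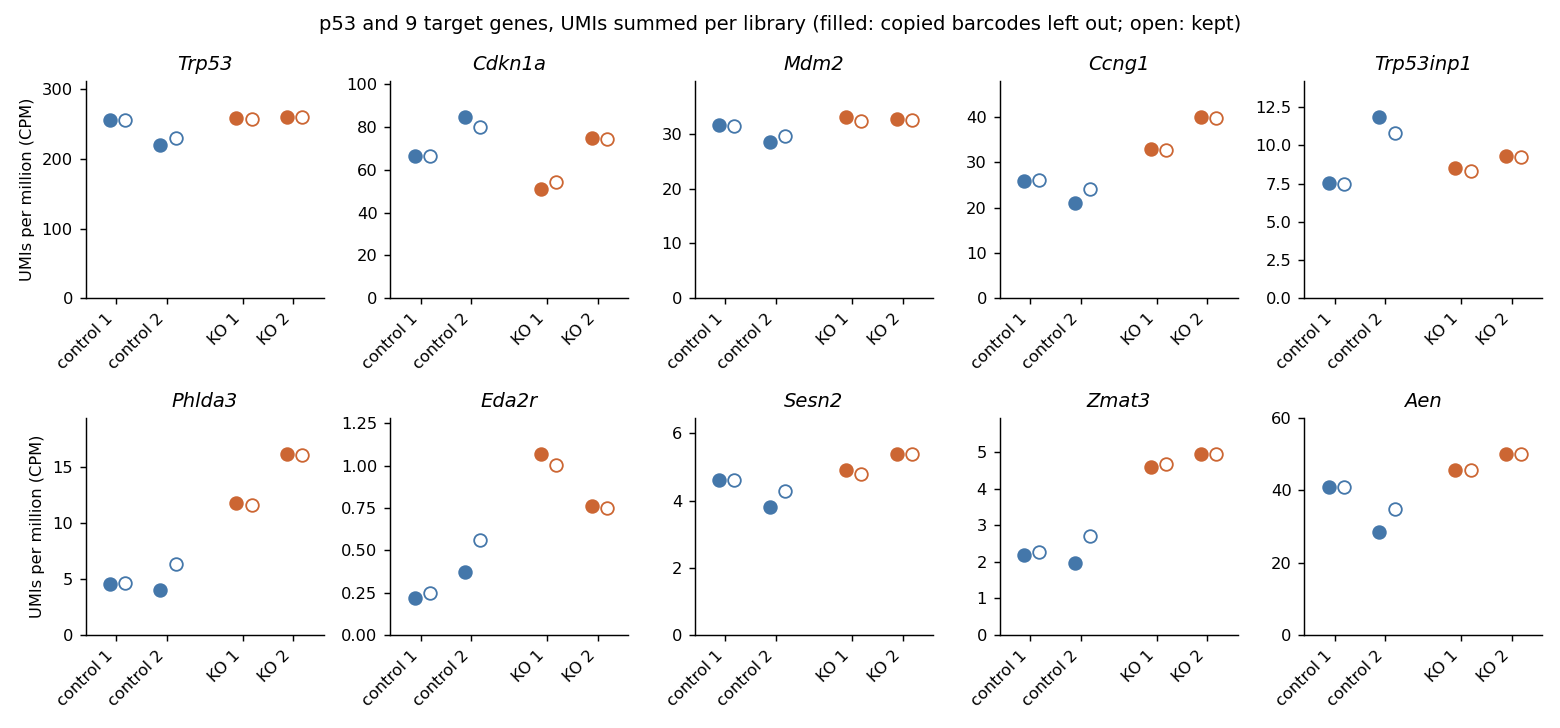
Counts per 1000000 UMIs of each member, summed over the kept cells of each library, on linear axes from 0. Filled points leave out copied barcodes and open points keep them. In Phlda3 and Zmat3 the 2 KO points lie clear of the 2 control points, while in Trp53 and Mdm2 the 4 points lie close together.

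Trp53 itself (GRCm38 chromosome 11, 69580359 to 69591873, plus strand) stood at 256 and 221 CPM in the controls and at 258 and 259.9 CPM in the KO. The KO values were at the level of the higher control, and the log2 difference was 0.081 ± 0.15 (adjusted p = 0.794).

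Mdm2 (chromosome 10, 117688875 to 117710758, minus strand), whose product marks p53 for degradation and which p53 switches on in turn, measured 31.5 and 28.5 CPM in the controls and 32.99 and 32.6 CPM in the KO. All 4 libraries lay within a narrow range, and the log2 difference was 0.087 ± 0.14 (adjusted p = 0.754).

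Cdkn1a (chromosome 17, 29090976 to 29100727, plus strand) encodes p21, the inhibitor of cyclin-dependent kinases through which p53 stops the cell cycle. It measured 66.6 and 84.6 CPM in the controls and 51.1 and 74.9 CPM in the KO. The groups overlapped, with KO replicate 1 the lowest of the 4, and the log2 difference was -0.30 ± 0.23 (adjusted p = 0.489). With 1 library left out the difference ran from -0.61 (without KO replicate 2) to -0.046 (without KO replicate 1), with no call. A list of 10 immediate early genes, which rise within minutes of cell handling, summed to 4088 and 4237 CPM in the controls and to 1554 and 1784 CPM in the KO, and their part in the values of any member was not tested.

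Ccng1 (chromosome 11, 40748552 to 40755311, minus strand) encodes cyclin G1, a p53 target that takes part in the control of Mdm2. It measured 25.8 and 20.9 CPM in the controls and 32.99 and 39.9 CPM in the KO. Both KO libraries lay above both controls, but the log2 difference of 0.60 ± 0.17 did not pass (adjusted p = 0.103). It was 0.74 with only control replicate 2 left on the control side and 0.48 with only control replicate 1 left.

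Phlda3 (chromosome 1, 135766119 to 135769136, plus strand) encodes a small lipid-binding protein that keeps the survival kinase Akt from the membrane. It measured 4.54 and 3.98 CPM in the controls (268 and 75 UMIs) and 11.8 and 16.2 CPM in the KO (386 and 870 UMIs). The KO libraries were the 2 highest by a wide margin, and the log2 difference was 1.67 ± 0.21 (adjusted p = 0.0148). With copied barcodes kept, the controls stood at 4.65 and 6.31 CPM and the KO at 11.6 and 16.04 CPM, a log2 difference of 1.32, adjusted p = 0.0355. With each of the 4 libraries left out in turn the log2 difference ran from 1.42 to 1.89. With every barcode sequence that occurs in more than 1 library left out, which kept 119 cells of control replicate 2, the call was lost (1.01, adjusted p = 0.28).

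Zmat3 (chromosome 3, 32334792 to 32366014, minus strand) encodes an RNA-binding zinc finger protein that p53 induces. It measured 2.2 and 1.96 CPM in the controls (130 and 37 UMIs) and 4.61 and 4.96 CPM in the KO (151 and 267 UMIs). The groups did not overlap, and the log2 difference of 1.15 ± 0.22 passed narrowly (adjusted p = 0.0455). It no longer passed with copied barcodes kept (0.93, adjusted p = 0.0548), nor without KO replicate 1 (1.21, adjusted p = 0.0928) or KO replicate 2 (1.10, adjusted p = 0.291). It was also lost without the B-lineage-like and plasmacytoid dendritic-like cells (1.14, adjusted p = 0.0501), when thinned to 2000 UMIs per cell (1.13, adjusted p = 0.253) and with every shared barcode left out (2.11, adjusted p = 0.0559).

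Eda2r (chromosome X, 97333840 to 97377216, minus strand), a receptor of the tumour necrosis factor family, was near the floor of the assay. It had 13 and 7 UMIs in the controls and 35 and 41 in the KO, or 0.22 and 0.371 CPM against 1.07 and 0.761 CPM. Both KO libraries were above both controls, and the log2 difference of 1.69 ± 0.48 did not pass (adjusted p = 0.104). It was 2.0 without control replicate 2, with only control replicate 1 left on the control side.

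Aen (chromosome 7, 78895854 to 78911209, plus strand), an exonuclease named for enhancing apoptosis, measured 40.8 and 28.3 CPM in the controls and 45.5 and 50.03 CPM in the KO. Its log2 difference was 0.43 ± 0.19 (adjusted p = 0.246). It was 0.69 with only control replicate 2 left on the control side and 0.21 with only control replicate 1 left. With every shared barcode left out it was -0.067, adjusted p = 0.935. Sesn2 (chromosome 4, 132492032 to 132510501, minus strand) encodes a stress-induced inhibitor of growth signalling through mTORC1. It measured 4.61 and 3.82 CPM in the controls and 4.92 and 5.39 CPM in the KO, a log2 difference of 0.24 ± 0.20 (adjusted p = 0.544). For both genes both KO libraries lay above both controls, without a call.

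Trp53inp1 (chromosome 4, 11156431 to 11174379, plus strand) encodes a nuclear stress protein that acts in cell death and autophagy. It measured 7.52 and 11.8 CPM in the controls and 8.52 and 9.32 CPM in the KO, so that the KO libraries lay between the controls (log2 difference -0.14 ± 0.25, adjusted p = 0.788). The direction turned with every shared barcode left out, where it passed (1.81, adjusted p = 0.0154), and without a call when thinned to 2000 UMIs per cell (0.24, adjusted p = 0.714) and without control replicate 2 (0.23, adjusted p = 0.399). With every shared barcode left out, B-lineage-like cells were 96 of 357 and 213 of 821 KO cells and 11 of 6060 and 5 of 119 control cells. They held 29 of 68 and 83 of 174 Trp53inp1 UMIs of the KO libraries, and their part in the turn was not tested. Without the B-lineage-like and plasmacytoid dendritic-like cells, a setting chosen after the data were seen, the difference was -0.47, adjusted p = 0.337. With each of 6 sets of cells given the same weight in every library it was -0.81, a value with no test. These were the ungated cells and the gates with at least 20 cells in every library. B-lineage-like and plasmacytoid dendritic-like cells were thus left out of that value.

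**Figure D2:**
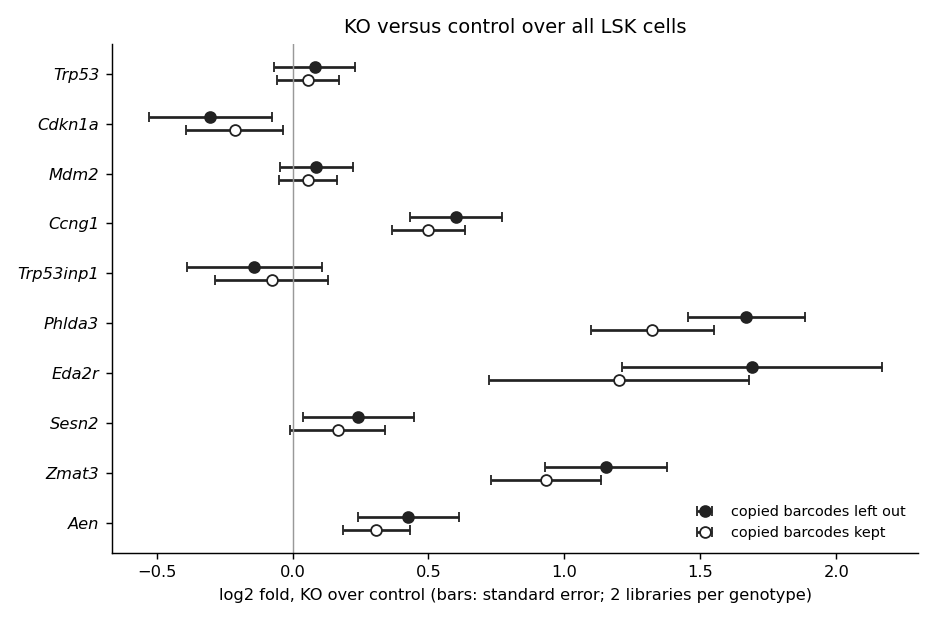
Fitted log2 difference of each member, Nup358 KO over control, with its standard error, over all LSK cells of 2 libraries per genotype. Filled points leave out copied barcodes and open points keep them. Phlda3 stands at 1.67 and 1.32, and keeping the copied barcodes moves each point towards 0.

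Keeping copied barcodes moved the log2 difference of all 10 members towards 0, and 1 member, Phlda3, then passed. With equal weights for the same 6 sets of cells Phlda3 stood at 1.42, Zmat3 at 0.91, Ccng1 at 0.54 and Cdkn1a at -0.47.

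Within gates, KO and control were compared where all 4 libraries had at least 20 cells, which held for 5 gates and for the cells of no gate. Of the 10 members, 6 to 10 passed the filter on low counts in a gate, and of these 45 pairs of a member and a gate, 3 passed the test. They were Phlda3 in the neutrophil-primed-like gate, where 2.5% of genes passed, Phlda3 among the ungated cells, where 3.08% passed, and Trp53inp1 in the lymphoid-primed-like gate, where 3.01% passed. By edgeR 0 members passed in the stem-like, megakaryocyte-primed-like and erythroid-primed-like gates, where 5.45%, 0.761% and 0.685% of genes did, with 3, 2 and 1 members at an unadjusted p under 0.05. The number of pairs that passed moved with the library left out, as did the number of all genes that passed over all cells. It is therefore not read as a result about the members.

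In neutrophil-primed-like cells Phlda3 measured 1.73 and 1.98 CPM in the controls (37 and 8 UMIs) and 9.98 and 8.15 CPM in the KO (13 and 8 UMIs). Both KO values were well above both controls, with a log2 difference of 2.36 ± 0.48 (adjusted p = 0.0148). The KO values rest on 43 and 42 cells. The call was lost with copied barcodes kept (1.97, adjusted p = 0.0592), with DESeq2 (2.32, adjusted p = 0.0848) and without control replicate 1 (2.09, adjusted p = 0.113), control replicate 2 (2.44, adjusted p = 0.138) or KO replicate 1 (2.17, adjusted p = 0.369).

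Among the ungated cells Phlda3 measured 5.82 and 3.86 CPM in the controls and 10.7 and 14.8 CPM in the KO, a log2 difference of 1.38 ± 0.25 (adjusted p = 0.0443). With copied barcodes kept it was 0.98, adjusted p = 0.0242, and the call was lost without KO replicate 2 (1.13, adjusted p = 0.142).

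In the 4 other gates Phlda3 also lay higher in both KO libraries than in both controls, although no test passed. In stem-like cells it measured 4.09 and 2.0 CPM against 11.4 and 10.8 CPM, on 7, 2, 11 and 11 UMIs (log2 difference 1.65 ± 0.59, adjusted p = 0.117, and 1.57 with copied barcodes kept). In megakaryocyte-primed-like cells it measured 4.92 and 2.1 CPM against 17.4 and 10.4 CPM, on 10, 1, 15 and 23 UMIs (1.58 ± 0.53, adjusted p = 0.225, and 1.60 with copied barcodes kept). In both gates the KO values lay above the controls, but control replicate 2 had only 2 and 1 UMIs. There 3 UMIs would have stood for 3.0 and 6.31 CPM. In erythroid-primed-like cells Phlda3 measured 11.8 and 7.68 CPM against 21.2 and 19.4 CPM, on 18, 3, 15 and 31 UMIs (0.88 ± 0.44, adjusted p = 0.591, and 0.65 with copied barcodes kept). In lymphoid-primed-like cells the groups came close, with 13.3 and 9.86 CPM against 14.9 and 30.98 CPM (1.11 ± 0.35, adjusted p = 0.101, and 1.12 with copied barcodes kept). Both KO libraries lay above both controls for 30.5% of all genes in the stem-like gate, 22.0% in the neutrophil-primed-like, 19.8% in the megakaryocyte-primed-like, 21.9% in the erythroid-primed-like and 23.2% in the lymphoid-primed-like gate, and 25.8% among ungated cells.

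**Figure D3:**
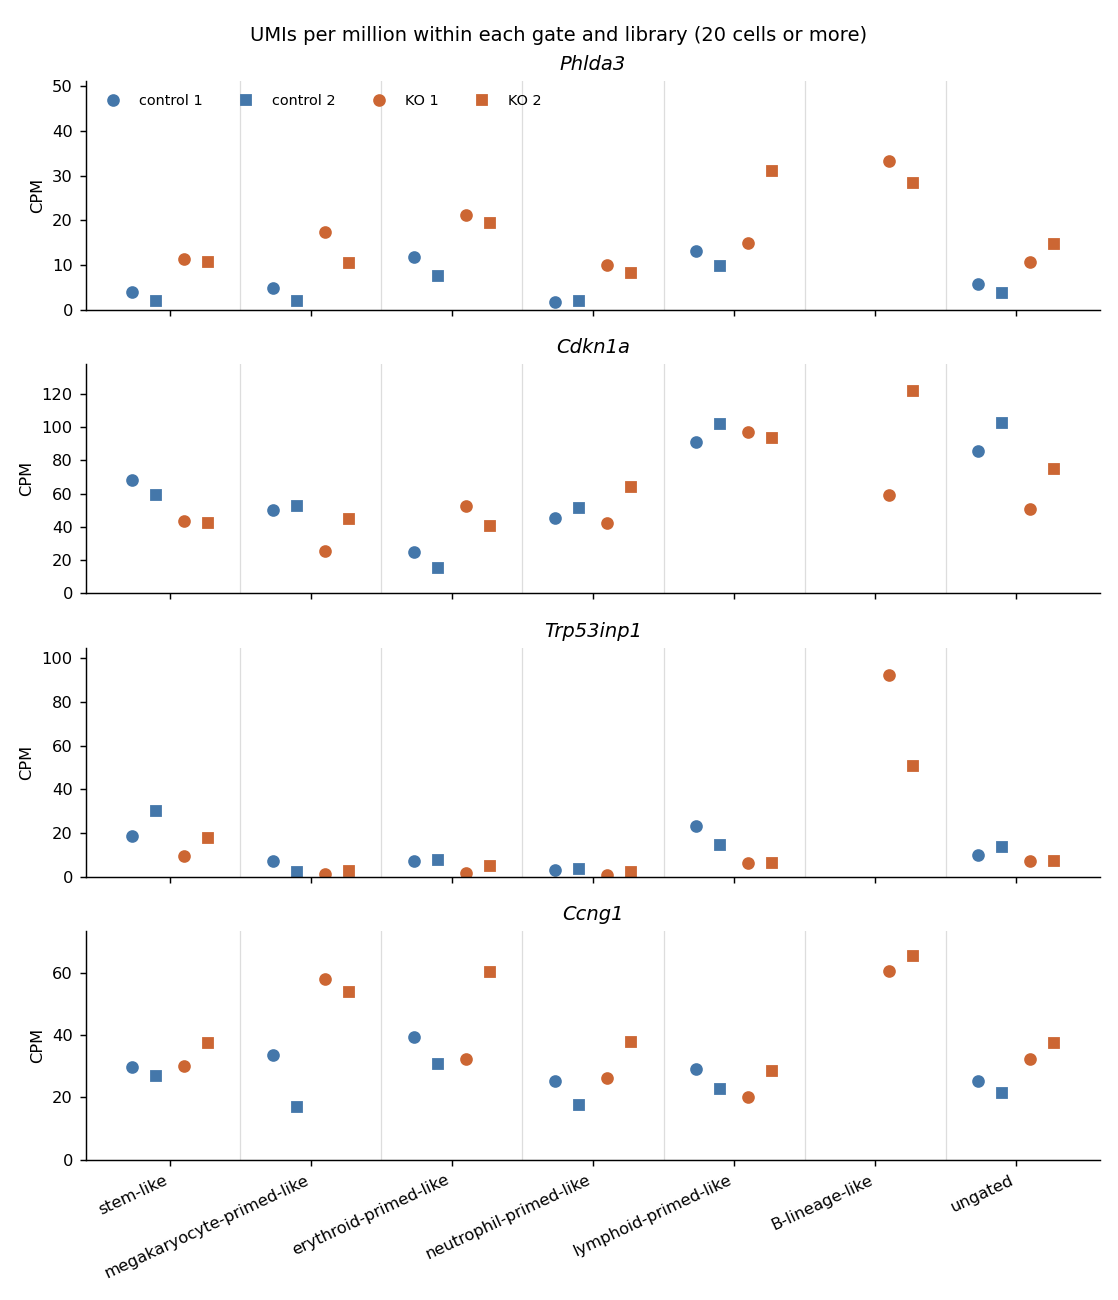
Counts per 1000000 UMIs of Phlda3, Cdkn1a, Trp53inp1 and Ccng1 within each gate, 1 point per library with at least 20 cells, on linear axes from 0. Phlda3 is higher in both KO libraries than in both controls in each gate with 4 points. Trp53inp1 is lower in both KO libraries than in both controls in the stem-like, lymphoid-primed-like and ungated cells and reaches 92.2 and 50.5 CPM in the B-lineage-like cells of the KO.

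Trp53inp1 was lower in the KO within the lymphoid-primed-like gate, at 6.13 and 6.2 CPM (7 and 20 UMIs) against 23.2 and 14.3 CPM (35 and 29 UMIs) in the controls. The groups did not overlap, and the log2 difference was -1.57 ± 0.36 (adjusted p = 0.0367). The call held with copied barcodes kept (-1.52, adjusted p = 0.0436) and was lost with looser gates (-1.0, adjusted p = 0.0812) and without KO replicate 2 (-1.55, adjusted p = 0.263). Among stem-like cells Trp53inp1 measured 18.7 and 29.99 CPM in the controls and 9.31 and 17.7 CPM in the KO (-0.88 ± 0.41, adjusted p = 0.235). Among ungated cells it measured 9.83 and 13.7 CPM against 7.27 and 7.2 CPM (-0.66 ± 0.21, adjusted p = 0.122). In these 2 sets of cells the KO libraries also lay below both controls, without a call. Both KO libraries were below both controls for 25.4% of all genes in the lymphoid-primed-like gate, 21.3% in the stem-like gate and 30.4% among ungated cells.

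Cdkn1a lay below both controls in both KO libraries in the stem-like gate, at 43.4 and 42.2 CPM against 68.3 and 58.99 CPM (log2 difference -0.67 ± 0.23, adjusted p = 0.106). Among ungated cells it measured 50.8 and 74.7 CPM in the KO and 85.4 and 102 CPM in the controls (-0.56 ± 0.22, adjusted p = 0.172). In the megakaryocyte-primed-like gate it measured 25.6 and 44.8 CPM in the KO and 50.2 and 52.6 CPM in the controls (-0.42 ± 0.27, adjusted p = 0.602). The erythroid-primed-like gate went the other way, with 52.2 and 40.7 CPM in the KO (37 and 65 UMIs) and 24.9 and 15.4 CPM in the controls (38 and 6 UMIs). That log2 difference of 1.01 ± 0.33 did not pass (adjusted p = 0.267). The difference between the KO effect in this gate and the KO effect in the other cells did pass, at 1.14 ± 0.29 (adjusted p = 0.00847, where 1.73% of genes passed). With copied barcodes kept the difference of effects was 1.05, adjusted p = 0.0175. It did not pass with DESeq2 (1.32, adjusted p = 0.763). The call was also lost without control replicate 2 (0.93) or KO replicate 1 (0.82), and the value was 1.92 without control replicate 1. In control replicate 2 this gate held 25 cells.

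Of 48 pairs of a member and a progenitor gate tested for such a difference of effects, the only other one that passed was Trp53inp1 in the lymphoid-primed-like gate, at -1.52 ± 0.40 (adjusted p = 0.0342, where 2.82% of genes passed). It was -1.51, adjusted p = 0.0106 with copied barcodes kept, and it did not pass without control replicate 1 (-0.85, adjusted p = 0.485), KO replicate 1 (-1.53, adjusted p = 0.13) or KO replicate 2 (-1.40, adjusted p = 0.295). By edgeR 0 members passed in the stem-like and megakaryocyte-primed-like gates, where 5.82% and 1.24% of genes did, with 1 member, Trp53inp1, at an unadjusted p under 0.05 in each. For Phlda3 the KO effect was not shown to differ between any gate and the other cells. Its difference of effects was 1.08 ± 0.45 in the neutrophil-primed-like gate (adjusted p = 0.231, where 2.73% of genes passed) and -0.69 ± 0.32 in the lymphoid-primed-like gate (adjusted p = 0.304).

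Ccng1 lay above the controls in both KO libraries in the megakaryocyte-primed-like gate, at 58.1 and 53.9 CPM against 33.5 and 16.8 CPM (log2 difference 0.96 ± 0.27, adjusted p = 0.124). In the lymphoid-primed-like gate the groups overlapped, at 20.1 and 28.5 CPM against 29.2 and 22.7 CPM (-0.024 ± 0.27, adjusted p = 0.978). Aen in lymphoid-primed-like cells measured 34.1 and 45.2 CPM in the KO and 21.2 and 21.7 CPM in the controls (0.91 ± 0.25, adjusted p = 0.0733). Its KO values were the higher ones, without a call. Within gates the log2 difference of Trp53 ran from -0.14 to 0.21 and that of Mdm2 from -0.078 to 0.30, with no call for either.

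The members also differed between progenitor types within a library, which was tested by setting the summed UMIs of a gate against those of the other cells of the same library. Over 8 gates, 25 of 77 pairs of a member and a gate passed. Read against all genes, 5 of 10 members passed in the stem-like gate (39.8% of genes), 5 of 10 in the neutrophil-primed-like gate (48.2%), 5 of 10 in the erythroid-primed-like gate (25.2%), 3 of 9 in the megakaryocyte-primed-like gate (23.9%) and 3 of 9 in the lymphoid-primed-like gate (15.8%). In the monocyte/dendritic-primed-like gate, from 3 libraries, 0 of 9 passed by edgeR (7.32% of genes, with 1 member at an unadjusted p under 0.05). The B-lineage-like and plasmacytoid dendritic-like gates could be tested in the 2 KO libraries only, where 3 of 10 (15.8% of genes) and 1 of 10 (11%) passed. When each cell was thinned to 2000 UMIs, 7 pairs passed. The lost calls named gate by gate below are not all those found over the alternatives.

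**Figure D4:**
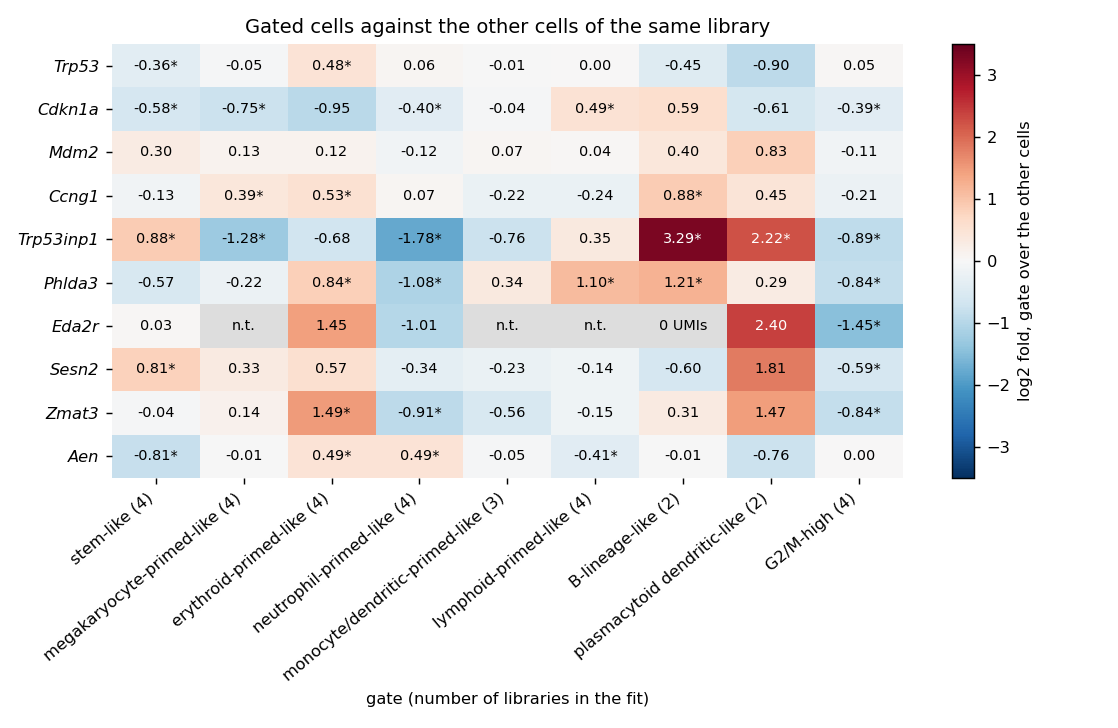
Fitted log2 difference of each member between the cells of a gate and the other cells of the same library, with the number of libraries in brackets. An asterisk marks an adjusted p under 0.05, n.t. a gene that did not pass the filter on low counts, and 0 UMIs a gate without a single count. Trp53inp1 spans the range from -1.78 in neutrophil-primed-like to 3.29 in B-lineage-like cells, and Mdm2 has no asterisk.

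Trp53 was high in the erythroid-primed-like gate, at 335 and 353 CPM in the controls and 334 and 322 CPM in the KO, above the other cells by 0.48 ± 0.08 on the log2 scale (adjusted p = 4.3e-06). It was lower than in the other cells in the stem-like gate, at 230.1 and 175 CPM in the controls and 240.0 and 260.2 CPM in the KO (-0.36 ± 0.10, adjusted p = 0.00718). All 4 erythroid-primed-like values lay above all 4 stem-like ones. Over the alternatives the erythroid-primed-like call was lost in 1 and the stem-like call in 2. Mdm2 had means of 26.9 to 44.4 CPM over the 6 gates with at least 3 libraries, and the difference of the stem-like gate, the highest of these, did not pass (0.30 ± 0.12, adjusted p = 0.0655).

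Cdkn1a was high in the lymphoid-primed-like gate, at 90.9 and 102 CPM in the controls and 97.2 and 93.2 CPM in the KO (95.9 ± 4.88 CPM, mean and SD, n = 4), above the other cells by 0.49 ± 0.10 on the log2 scale (adjusted p = 0.00261). The 4 libraries hardly differed there. That call was lost in 2 alternatives, with a lowest value of 0.013. Cdkn1a had a like level in the ungated cells of the controls, at 85.4 and 102 CPM, against 50.8 and 74.7 CPM in the KO. In the B-lineage-like cells of the KO it measured 58.8 and 122 CPM. It was lower than in the other cells in the megakaryocyte-primed-like (-0.75 ± 0.11, adjusted p = 2.81e-10), stem-like (-0.58 ± 0.13, adjusted p = 0.00156) and neutrophil-primed-like gates (-0.40 ± 0.10, adjusted p = 0.00327). The erythroid-primed-like gate had the lowest mean of the gates with 4 libraries, 33.3 ± 16.4 CPM (SD, n = 4), and the test did not pass (-0.95 ± 0.36, adjusted p = 0.152).

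Trp53inp1 varied widely between gates. In the B-lineage-like cells of the KO it measured 92.2 and 50.5 CPM (58 and 126 UMIs), 3.29 ± 0.28 above the other cells on the log2 scale (adjusted p = 6.62e-29). In the plasmacytoid dendritic-like cells it measured 64.1 and 37.6 CPM (8 and 10 UMIs), 2.22 ± 0.55 above the other cells (adjusted p = 0.00123), a gate in which the median of all genes was -0.24. Both fits rest on 2 libraries, and their p-values lean on the spread of other genes. Over the alternatives the plasmacytoid dendritic-like call was lost in 2, with a lowest value of 0.28. B-lineage-like cells held 20.8% and 25.1% of the Trp53inp1 UMIs of the KO libraries and 2.03% and 1.79% of those of the controls.

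Among the gates with 4 libraries the means of Trp53inp1 fell from stem-like (18.9 ± 8.5 CPM) over lymphoid-primed-like (12.5 ± 8.14), erythroid-primed-like (5.32 ± 2.85) and megakaryocyte-primed-like (3.22 ± 2.53) to neutrophil-primed-like cells (2.26 ± 1.15, SD, n = 4 each). Neighbours in that order overlapped. Against the other cells the stem-like gate was higher (0.88 ± 0.21, adjusted p = 0.0028), and the megakaryocyte-primed-like (-1.28 ± 0.31, adjusted p = 0.000361) and neutrophil-primed-like gates (-1.78 ± 0.20, adjusted p = 6.34e-07) were lower. The stem-like call was lost without control replicate 2 (0.67, adjusted p = 0.0546), and with every shared barcode left out the value turned to -0.15, adjusted p = 0.85. The megakaryocyte-primed-like call was lost in 3 alternatives, and its value ran from -1.57 to -0.77 in the alternatives with all libraries kept. With 1 library left out it ran from -2.16 (without control replicate 1, adjusted p = 1.26e-05) to -0.99.

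Phlda3 was higher than in the other cells in the lymphoid-primed-like (1.10 ± 0.19, adjusted p = 0.000586), erythroid-primed-like (0.84 ± 0.26, adjusted p = 0.0118) and B-lineage-like gates (1.21 ± 0.32, adjusted p = 0.00142), and lower in the neutrophil-primed-like gate (-1.08 ± 0.24, adjusted p = 0.000973). Over the alternatives the lymphoid-primed-like and erythroid-primed-like calls were lost in 2 each, the B-lineage-like call in 3 and the neutrophil-primed-like call in 1. Without control replicate 1 the erythroid-primed-like value was 0.60 (adjusted p = 0.151) and the neutrophil-primed-like value -0.62 (adjusted p = 0.11), both without a call. The neutrophil-primed-like gate, with the lowest mean of Phlda3 among gates of 4 libraries (5.46 ± 4.23 CPM, SD) had a smaller share of the cells in the KO, and the part of these shares in the difference over all cells was not tested.

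Zmat3 was higher in erythroid-primed-like cells (1.49 ± 0.37, adjusted p = 0.00182), on 15, 1, 4 and 21 UMIs, and lower in neutrophil-primed-like cells (-0.91 ± 0.33, adjusted p = 0.0277). The first call was lost without control replicate 1 (1.12, adjusted p = 0.0646), the second without control replicate 1 (-0.71, adjusted p = 0.297) or KO replicate 1 (-0.78, adjusted p = 0.0701). Sesn2 was higher in stem-like cells (0.81 ± 0.26, adjusted p = 0.0202), at 10.5 and 6.0 CPM in the controls and 7.24 and 12.8 CPM in the KO, a call lost without control replicate 1 (0.73, adjusted p = 0.123) or KO replicate 2 (0.71, adjusted p = 0.088). Ccng1 was higher in the erythroid-primed-like (0.53 ± 0.15, adjusted p = 0.00641), megakaryocyte-primed-like (0.39 ± 0.13, adjusted p = 0.0125) and B-lineage-like gates (0.88 ± 0.25, adjusted p = 0.00357). Its erythroid-primed-like call was lost without KO replicate 2 (0.42, adjusted p = 0.145), and the megakaryocyte-primed-like call without KO replicate 1 (0.29, adjusted p = 0.186) or KO replicate 2 (0.39, adjusted p = 0.112). Over all alternatives the stem-like call of Sesn2 was lost in 5 and the megakaryocyte-primed-like call of Ccng1 in 6.

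Aen was lower in stem-like (-0.81 ± 0.14, adjusted p = 0.000164) and lymphoid-primed-like cells (-0.41 ± 0.12, adjusted p = 0.0329) and higher in neutrophil-primed-like (0.49 ± 0.091, adjusted p = 0.000191) and erythroid-primed-like cells (0.49 ± 0.14, adjusted p = 0.00645). The lymphoid-primed-like call was lost without control replicate 1 (-0.26, adjusted p = 0.152), control replicate 2 (-0.42, adjusted p = 0.0627) or KO replicate 1 (-0.42, adjusted p = 0.0812), and the erythroid-primed-like call without control replicate 1 (0.31, adjusted p = 0.209). Over all alternatives the lymphoid-primed-like call was lost in 6, the stem-like and erythroid-primed-like calls in 2 each and the neutrophil-primed-like call in 1. Eda2r had 0 to 6 UMIs per library in each progenitor gate, and no difference between these gates is read from it. In the B-lineage-like cells of the KO it had 0 UMIs, where 3 UMIs would have stood for 4.77 and 1.2 CPM, more than its level over all cells.

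Cells rich in G2/M genes (13 genes such as Mki67, Top2a and Ccnb1) were set against the other cells of their library, since several targets of p53 act on the cell cycle. This gate of 4529 cells was made apart from the progenitor gates, and its cells had a median of 12941 UMIs. Of the 10 members, 6 were lower in it and 0 higher, where 17.4% of 13502 genes passed. These were 8.32% of all genes lower and 9.04% higher. The 6 were Eda2r (-1.45 ± 0.34, adjusted p = 0.0252), Trp53inp1 (-0.89 ± 0.14, adjusted p = 0.00605), Phlda3 (-0.84 ± 0.11, adjusted p = 0.00358), Zmat3 (-0.84 ± 0.16, adjusted p = 0.0115), Sesn2 (-0.59 ± 0.13, adjusted p = 0.0225) and Cdkn1a (-0.39 ± 0.083, adjusted p = 0.0201). Each of these was lower in G2/M-high cells in 4 of 4 libraries, for Eda2r on 3 and 1 UMIs in the controls and 7 and 9 in the KO. The progenitor types differ in the G2/M list. Its median was 0 UMIs per 10000 in stem-like, B-lineage-like and plasmacytoid dendritic-like cells. It was 16.9 in neutrophil-primed-like and 18.4 in erythroid-primed-like cells. The part of cell type in these differences was not tested. With every shared barcode left out 0 of 9 members passed by edgeR, with 0 at an unadjusted p under 0.05, and the difference turned to 0.21, adjusted p = 0.96 for Phlda3 and 0.19, adjusted p = 0.907 for Cdkn1a.

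Phlda3, for example, stood at 5.74 and 4.71 CPM in the other cells of the controls and at 3.15 and 1.73 CPM in their G2/M-high cells. In the KO it stood at 13.6 and 20.8 CPM in the other cells and at 8.54 and 11.4 CPM in the G2/M-high cells. The G2/M-high cells of the KO were thus still above the other cells of the controls. Trp53 (0.045 ± 0.037, adjusted p = 0.422), Mdm2 (-0.11 ± 0.071, adjusted p = 0.286), Aen (0.0032 ± 0.054, adjusted p = 0.978) and Ccng1 (-0.21 ± 0.075, adjusted p = 0.0804) did not pass. When each cell was thinned to 2000 UMIs 1 call was left, that of Trp53inp1. Without control replicate 1 the only call left was that of Phlda3, and without KO replicate 2 there were 3.

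**Figure D5:**
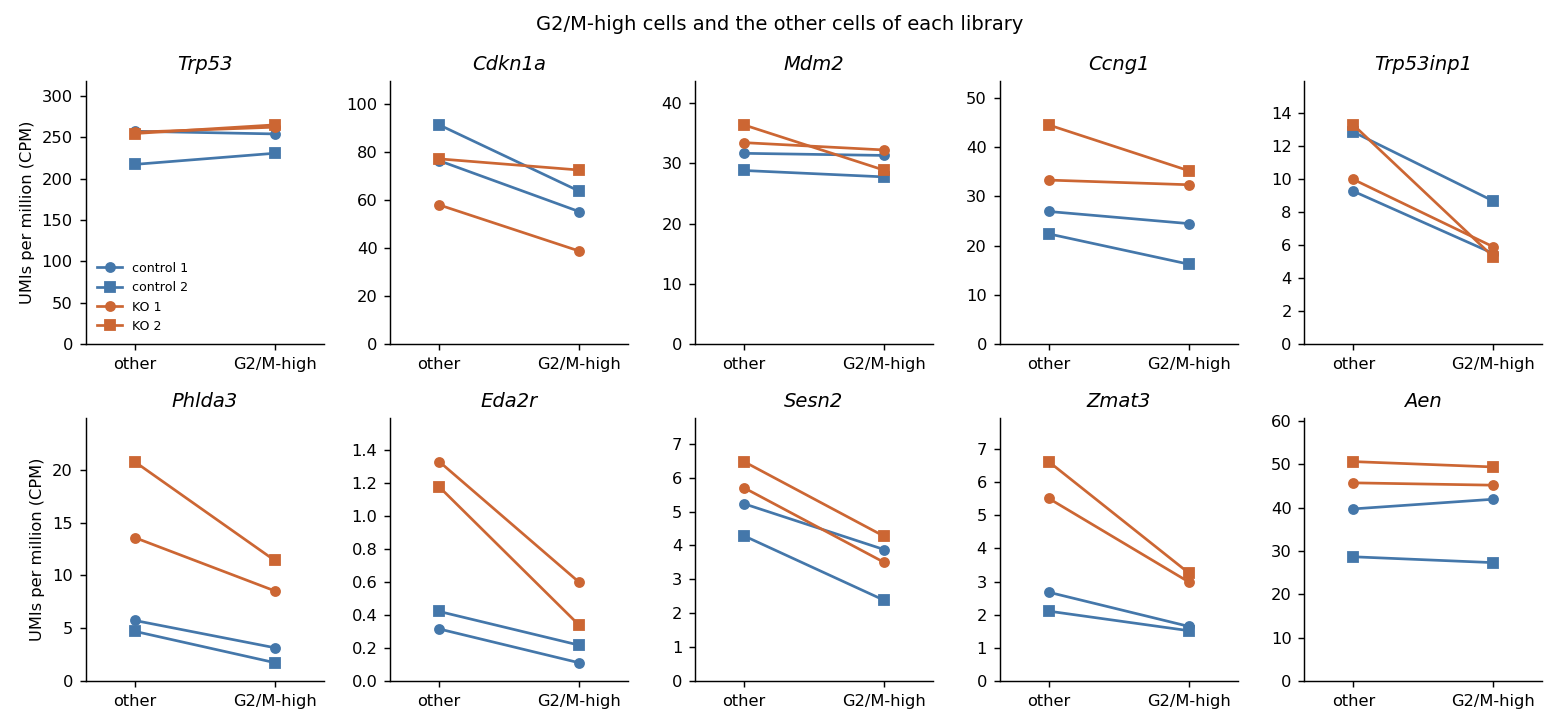
Counts per 1000000 UMIs of each member in the G2/M-high cells and in the remaining cells of that library, on linear axes from 0, with 1 line per library. The lines of Phlda3, Zmat3, Eda2r, Sesn2, Trp53inp1 and Cdkn1a fall in each of the 4 libraries, while those of Trp53 and Aen are nearly level.

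The KO effect was not shown to differ between G2/M-high and other cells for any member by edgeR (0 of 10, where 7.19% of genes passed, with 1 member at an unadjusted p under 0.05). The share of G2/M-high cells itself was 33.5% and 16.2% in the controls and 25.2% and 38.2% in the KO, with no separation of the genotypes.

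Of 51 other genes listed for the p53 pathway, 50 were in the files and 48 were tested over all LSK cells. Of these, 3 were higher and 1 lower in the KO (8.33%, beside 3.29% of all genes), and their median log2 difference was 0.024. Pmaip1, which encodes the death-promoting protein Noxa, measured 2.96 and 3.24 CPM in the controls and 6.81 and 6.67 CPM in the KO (1.09 ± 0.20, adjusted p = 0.0398). Sfn, which encodes the G2 arrest protein 14-3-3 sigma, measured 3.88 and 3.55 CPM against 7.3 and 7.91 CPM (0.99 ± 0.19, adjusted p = 0.0436). For both genes both KO libraries lay above both controls, as for 29.9% of all genes, and the tests passed narrowly. The genes of this list were not followed through the alternative settings. Btg2, an antiproliferative gene that is also an immediate early gene, was lower, at 34.9 and 38.8 CPM against 81.97 and 143 CPM in the controls (-1.65 ± 0.27, adjusted p = 0.031). Pltp, a lipid transfer protein, had 3 and 0 UMIs in the controls and 74 and 89 in the KO (adjusted p = 0.00899), and it was also higher in plasmacytoid dendritic-like cells than in the others (9.40 ± 0.40, adjusted p = 2.72e-114). Sfn was higher in B-lineage-like cells (2.0 ± 0.35, adjusted p = 3.12e-07), and the part of these cell types in the Pltp and Sfn values was not tested.

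Within gates, Btg2 was lower in the KO in the stem-like (-2.76 ± 0.33, adjusted p = 0.000679), megakaryocyte-primed-like (-1.60 ± 0.21, adjusted p = 0.000332), lymphoid-primed-like (-1.55 ± 0.23, adjusted p = 0.00515) and neutrophil-primed-like gates (-1.36 ± 0.30, adjusted p = 0.0261) and among ungated cells (-1.98 ± 0.26, adjusted p = 0.0248). In the erythroid-primed-like gate 0 genes of the list passed by edgeR, with 2 at an unadjusted p under 0.05, and those with the smallest p were Btg2 (-2.49, adjusted p = 0.164), Gadd45a (-1.22, adjusted p = 0.177), Atm (0.65, adjusted p = 0.608) and Kat5 (-0.82, adjusted p = 0.661). Pmaip1 was higher among neutrophil-primed-like (2.24 ± 0.40, adjusted p = 0.00698) and ungated cells (1.74 ± 0.21, adjusted p = 0.0217), and Gtse1, a G2 gene that restrains p53, among ungated cells (1.13 ± 0.19, adjusted p = 0.0409). In stem-like cells the spindle gene Ckap2 (1.73 ± 0.36, adjusted p = 0.0127) and the checkpoint kinase gene Chek1 (1.66 ± 0.39, adjusted p = 0.025) were higher. The stress gene Ddit4 (-1.66 ± 0.39, adjusted p = 0.0235) and Bbc3, which encodes the death-promoting protein Puma (-1.59 ± 0.39, adjusted p = 0.0279), were lower there.

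The KO effect on 5 of 47 genes of the list differed between stem-like and other cells (where 5.82% of all genes passed). The effect was higher for Chek1 (1.40, adjusted p = 0.00635), Ckap2 (1.24, adjusted p = 0.0235) and Rps27l (0.42, adjusted p = 0.00676) and lower for Perp (-2.83, adjusted p = 0.0106) and Btg2 (-1.10, adjusted p = 0.000204). Between G2/M-high and other cells it differed for 2 of 47 genes, a smaller share than the 7.19% of all genes that passed. They were Psrc1 (-1.02, adjusted p = 0.000274) and Gtse1 (-1.53, adjusted p = 0.0167). In G2/M-high cells 5 of 47 genes of the list were higher than in the other cells (Psrc1, Ckap2, Chek2, Mdm4 and Atr), where 9.04% of all genes were. Another 9 were lower (Bbc3, Pltp, Gdf15, Sfn, Polk, Pidd1, Chek1, Btg2 and Atm), where 8.32% of all genes were. Psrc1 stood at 1.79 ± 0.25, adjusted p = 0.0158 and Bbc3 at -1.04 ± 0.10, adjusted p = 0.000863.

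For the 5 members with a mean of at least 20 CPM, the genes whose levels ran most alike over 32 sums of a library and a gate were looked up among 6048 genes by Pearson's r of log2(CPM + 5). The sums share libraries and depth, and no test was made. Trp53 ran closest to Dap3 (r = 0.86), Rad50 (0.85) and Prdx2 (0.85). Cdkn1a ran closest to Gmfg (0.76), Cd93 (0.74) and Vegfa (0.74). Mdm2 ran closest to Smg1 (0.85), Ccng1 to Kif5b (0.79) and Aen to Tbrg4 (0.86).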

How the data were processed

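LSK cells were sorted from bone marrow and profiled with 3′ v3.1 droplet chemistry in 4 libraries. The authors aligned the reads to GRCm38 with Cell Ranger 3.1 per the labels and deposited raw UMI counts per gene and cell barcode, each library on its own. No column of sample values was left unused. The members, gene lists and tests were chosen with earlier results of these data known, and the gate thresholds after the marker scores had been seen. Pathway genes are named where they passed the test, or else the 4 with the smallest p, and for comparisons of a progenitor gate with other cells only where a result turns on them.

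Barcodes with under 200 genes or over 10% mitochondrial UMIs and copied barcodes were left out, and no doublet caller was run. UMIs were summed per library and gate, with at least 20 cells per sum. Sums were tested with edgeR 4.0.16 in R 4.3.3 (quasi-likelihood, TMM scaling, filterByExpr, Benjamini-Hochberg over all genes tested), with library as a block in comparisons within libraries. In the gate tests the marker genes of the gate were among the genes tested. The SE is the log2 difference divided by the root of F. Alternatives used DESeq2 1.42.0, other filters, gates, scalings and blocks, and each library left out in turn. For KO against control, leaving out a library leaves its genotype without replication, so no rise or fall is read from calls gained there. The labels do not say that equal replicate numbers share an animal or a day, so that the libraries are treated as unpaired. For KO against control the p-values measure the spread between pools of 3 mice. For a gate against other cells they measure how far that difference varies between libraries. edgeR shares this spread over genes, so that with 2 libraries a very small p rests mostly on the spread of other genes.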

Additional observations from a re-analysis of the deposited data

Results flagged for a closer look

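The KO effect on 2 members differed between a gate and the other cells by a test of the difference itself. For Cdkn1a in erythroid-primed-like cells the difference of effects was 1.14 on the log2 scale (adjusted p = 0.00847, edgeR, 4 libraries), on 38 and 6 UMIs in the controls and 37 and 65 in the KO. For Trp53inp1 in lymphoid-primed-like cells it was -1.52 (adjusted p = 0.0342, edgeR, 4 libraries), on 35 and 29 and 7 and 20 UMIs. Within the gate both KO libraries lay above both controls for the first, as for 21.9% of all genes, and below for the second, as for 25.4%. These were 2 of 48 pairs of a member and a gate, where 1.24% to 5.82% of all genes passed in a gate. Over the alternatives with a value, the first ran from 0.82 to 2.05 and the second from -2.17 to -0.85, and both lost their call when each cell was thinned to 2000 UMIs.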

How the results depend on the processing

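Over 46 log2 differences followed through 576 alternative values, 454 kept their direction and side of the threshold, 99 kept their direction and lost the call, 10 gained a call, 10 reversed and 3 values with no test moved by more than the spread between replicates. In the B-lineage-like and plasmacytoid dendritic-like gates no control library was in the fit. Leaving one out there could change nothing, and those values count as kept. The number of members that passed over all cells (2) was 1 with copied barcodes kept, with every shared barcode left out, without B-lineage-like and plasmacytoid dendritic-like cells, and thinned to 2000 UMIs. It was 4 with no filter on low counts and 1 to 4 with 1 library left out. Within gates (3) it was 5 with copied barcodes kept, 0 with every shared barcode left out (edgeR, 9 pairs, 3 at an unadjusted p under 0.05), 1 with stricter and 6 with looser gates, 11 with no filter, and 1 to 10 with 1 library left out. For gates against other cells (25) it was 5 with every shared barcode left out, 7 thinned, and 18 to 24 with 1 library left out. For G2/M-high cells (6) it was 0 with every shared barcode left out (edgeR, 9 members, 0 at an unadjusted p under 0.05), 1 thinned, and 1 to 5 with 1 library left out. For the difference of effects (2) it was 0 with stricter gates (edgeR, 9 pairs), thinned (edgeR, 40 pairs) and by DESeq2 (50 pairs), with 1, 2 and 4 at an unadjusted p under 0.05, 4 with looser gates, and 0 to 2 with 1 library left out. It could not be fitted with every shared barcode left out.

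Of all genes 453 passed over all cells, against 196 with every shared barcode left out, 252 thinned, 1933 with no filter, 877 with DESeq2 and 344 to 3158 with 1 library left out. The share of these that were higher in the KO was 39.7%, and 77.0% with every shared barcode left out. With the replicate number as a block 3 members passed over all cells, 5 pairs within gates and 1288 genes. Libraries with the same number did not deviate together (correlation -0.16 over 13779 genes), so that the numbers are not taken as a pairing. With the numbers crossed, 5 members, 8 pairs and 2200 genes passed. This block joins control replicate 1 with KO replicate 2 (medians of 6251 and 14398.5 UMIs per kept cell). It also joins control replicate 2 with KO replicate 1 (13175.5 and 17707). It is thus a block by depth within each genotype only. Both KO libraries had higher medians than both controls, and the block does not adjust for that.

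With every shared barcode left out, control replicate 2 kept 119 cells, and B-lineage-like cells made up 96 of 357 and 213 of 821 KO cells. In this setting the log2 difference over all cells turned to 1.81 for Trp53inp1 (adjusted p = 0.0154), -0.067 for Aen and -0.28 for Trp53. The difference of gate and other cells turned to -0.15 for Trp53inp1 (stem-like) and -0.14 for Ccng1 (B-lineage-like), and in G2/M-high cells to 0.21 for Phlda3 and 0.19 for Cdkn1a. Over all cells Trp53inp1 turned to 0.24 when thinned. With 1 library left out it ran from -0.47 to 0.23 (without control replicate 2), and Trp53 from -0.0016 (likewise) to 0.16. The causes were not tested. Low members rest on fewer than 20 UMIs per library in some gates, which limits what can be detected there.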
